A study of Mus musculus with 12 samples.

Results

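The BCL2 family decides whether a cell keeps the outer membrane of its mitochondria intact. A set of 10 of its genes, chosen by name and with earlier results of these data known, is described here. Of these 10, 9 were measured among 19938 genes tested. Each of the 9 had a single probe set with 1 gene symbol in the annotation of the platform, so no choice between probe sets was needed. Bax was not analysed here. The samples were bone marrow cells of C57B/6 mice, all grown for 6 days with 20 ng/ml GM-CSF, and RNA was measured on Affymetrix GeneChip Mouse Gene 1.0 arrays. GM-DC, labelled as dendritic cells, and GM-MF, labelled as macrophages, were each studied after 4 hours with 10 ng/ml LPS, a bacterial ligand of Toll-like receptor 4, and without stimulation. Each of these 4 groups held 3 arrays, 12 in all. The labels do not say how the cell types were separated, or whether the arrays of a group stand for different mice or cultures. The p-values therefore rest on array-to-array spread alone, and some of it may be technical.

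Proteins of this family fall into 3 classes. BCL2, BCL-XL (gene Bcl2l1) and MCL1 protect the cell by holding the other classes in check. BAK, the effector measured here (gene Bak1), opens pores in the mitochondrial membrane, and the BH3-only proteins BIM (Bcl2l11), BMF, NOXA (Pmaip1), BID and PUMA (Bbc3) start the process by occupying the protectors or by acting on the effectors. Dendritic cells are short-lived after maturation, and BIM is known to limit their lifespan in mice.

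The labels were checked against marker genes. All 6 dendritic cell markers (Flt3, Zbtb46, Ccr7, Fscn1, Cd83 and Dpp4) were higher in GM-DC with and without LPS, and all 7 measured macrophage markers, among them Csf1r and Mertk, were lower. The LPS differences of the dendritic cell markers in GM-DC lay between -0.40 for Dpp4 and 0.38 for Fscn1 and did not pass, and 4 of the 6 markers rose in GM-MF, namely Ccr7 (2.47 ± 0.26), Fscn1 (1.82 ± 0.32), Cd83 (1.05 ± 0.21) and Zbtb46 (0.40 ± 0.12), where the mean level of the list was 6.03 to 6.58 with LPS and 5.17 to 5.64 without. In unstimulated GM-DC the mean levels of Ccr7, Fscn1 and Cd83 were already 12.1, 11.8 and 10.8. In GM-MF with LPS they were 9.5, 6.7 and 7.5. Whether GM-DC without LPS were at rest was not tested. Of the 7 macrophage markers, 3 rose and 1 fell with LPS in GM-DC, and 2 rose and 1 fell in GM-MF. Mertk rose in both (1.00 ± 0.16 in GM-DC and 0.97 ± 0.16 in GM-MF) and Csf1r fell in both (-1.62 ± 0.12 in GM-DC and -0.93 ± 0.12 in GM-MF). The part of these markers in the LPS responses below was not tested. Arrays of 1 group correlated at 0.993 to 0.996 across genes. Of 8 neutrophil markers, 1 was higher and 2 were lower in GM-DC without LPS, and 1 was higher and 5 were lower with LPS. The mean level of this list was 5.79 to 5.97 in GM-DC and 5.98 to 6.34 in GM-MF over the arrays of both conditions. This mean covers unlike genes. In each group 3 of the 8 had a mean under the median of all values, 4.48. The group means of S100a8 and S100a9, named after their values were seen, ran from 9.40 to 10.9. None of the 5 mast cell and basophil markers or the 3 measured erythroid markers was called between cell types in either condition. Of the 5 measured B cell markers, 1 was higher in GM-DC with LPS and 0 were called without. Of 6 T and NK cell markers 2 were higher in GM-DC in each condition, and the mean level of the list was 4.18 to 4.42 in GM-DC and 3.61 to 3.94 in GM-MF. Among them was Cd8a, named after its values were seen and also known from some dendritic cells. The part of such cells in the results below was not tested. In RNA of whole samples, fewer cells of a type and less RNA per cell cannot be told apart.

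The promoters of 4 genes that responded to LPS are shown first, because these genes moved in different directions. Pmaip1, which also responded, had no start in the source used. The sequences are from RefSeq on GRCm38.p6, which held 15 starts for 8 of the 9 genes. Each was searched on both strands, over the 250 bases before the start, for the kappaB consensus of NF-kB, the forkhead motif TGTTTAC, the AP-1 motif TGANTCA, the interferon-stimulated response element (GAAA, any 2 bases, GAAA) and the STAT motif TTCNNNGAA. Capitals mark the only matches. The first Bcl2l11 start (chr2:128125788-128126037, plus strand) has a forkhead motif, read on the other strand and beginning 227 bases before the start. The second of 3 Bcl2l1 starts has a kappaB match beginning 242 bases before it, shown in a stretch of 30 bases (chr2:152830938-152830967, minus strand). This start lies inside the annotated gene, and it was printed because it holds the match. The stretch is shorter than the 250 bases shown for the other genes. The remaining Bcl2l1 and Bcl2l11 starts hold no match, and neither do the later Bmf starts. The first Bmf start (chr2:118549687-118549936, minus strand) and the Bcl2 start (chr1:106714291-106714540, minus strand) hold none of the 5.
Bcl2l11: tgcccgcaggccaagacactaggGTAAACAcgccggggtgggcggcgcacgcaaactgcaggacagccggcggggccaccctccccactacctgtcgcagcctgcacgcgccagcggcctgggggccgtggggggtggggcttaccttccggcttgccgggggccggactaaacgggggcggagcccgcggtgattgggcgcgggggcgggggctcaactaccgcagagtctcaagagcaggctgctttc
Bcl2l1: tgtttgtgGGGGGTCTCCagcatacgcctc
Bmf: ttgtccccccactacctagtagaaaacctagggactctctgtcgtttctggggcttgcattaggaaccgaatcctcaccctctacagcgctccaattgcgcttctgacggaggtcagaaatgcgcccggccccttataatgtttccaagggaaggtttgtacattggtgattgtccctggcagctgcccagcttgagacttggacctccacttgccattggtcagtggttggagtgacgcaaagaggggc
Bcl2: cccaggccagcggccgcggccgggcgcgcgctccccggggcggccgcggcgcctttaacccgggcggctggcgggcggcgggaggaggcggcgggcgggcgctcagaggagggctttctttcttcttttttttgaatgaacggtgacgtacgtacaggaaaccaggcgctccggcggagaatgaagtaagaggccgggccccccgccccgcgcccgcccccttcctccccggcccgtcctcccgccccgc
Of all 32851 promoters of the same length, 3.17% hold the forkhead motif, 3.9% the kappaB consensus, 6.75% the AP-1 motif, 2.98% the interferon-stimulated response element and 7.02% the STAT motif. Outside these genes, 2 of 3 Bbc3 starts had a match, the first with overlapping kappaB matches on both strands and the second with a forkhead motif. A match describes letters in a window and was not tested as a binding site.

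Of Bcl2, Bcl2l1 and Mcl1, the protective genes of the set, a different one was called with LPS in each cell type. Bcl2l1 rose 4.99-fold with LPS in GM-DC and did not pass the test in GM-MF. Bcl2 fell 1.80-fold in GM-MF and did not pass in GM-DC, where its values lay close to the median of the whole table. Both cell types raised Bcl2l11, the gene of BIM, and lowered the genes of BMF and NOXA. Bmf and Pmaip1 were also higher in GM-DC than in GM-MF under both conditions, and Bid was lower. The group means of Bak1, Bbc3 and Mcl1 lay closest together.

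**Figure D1:**
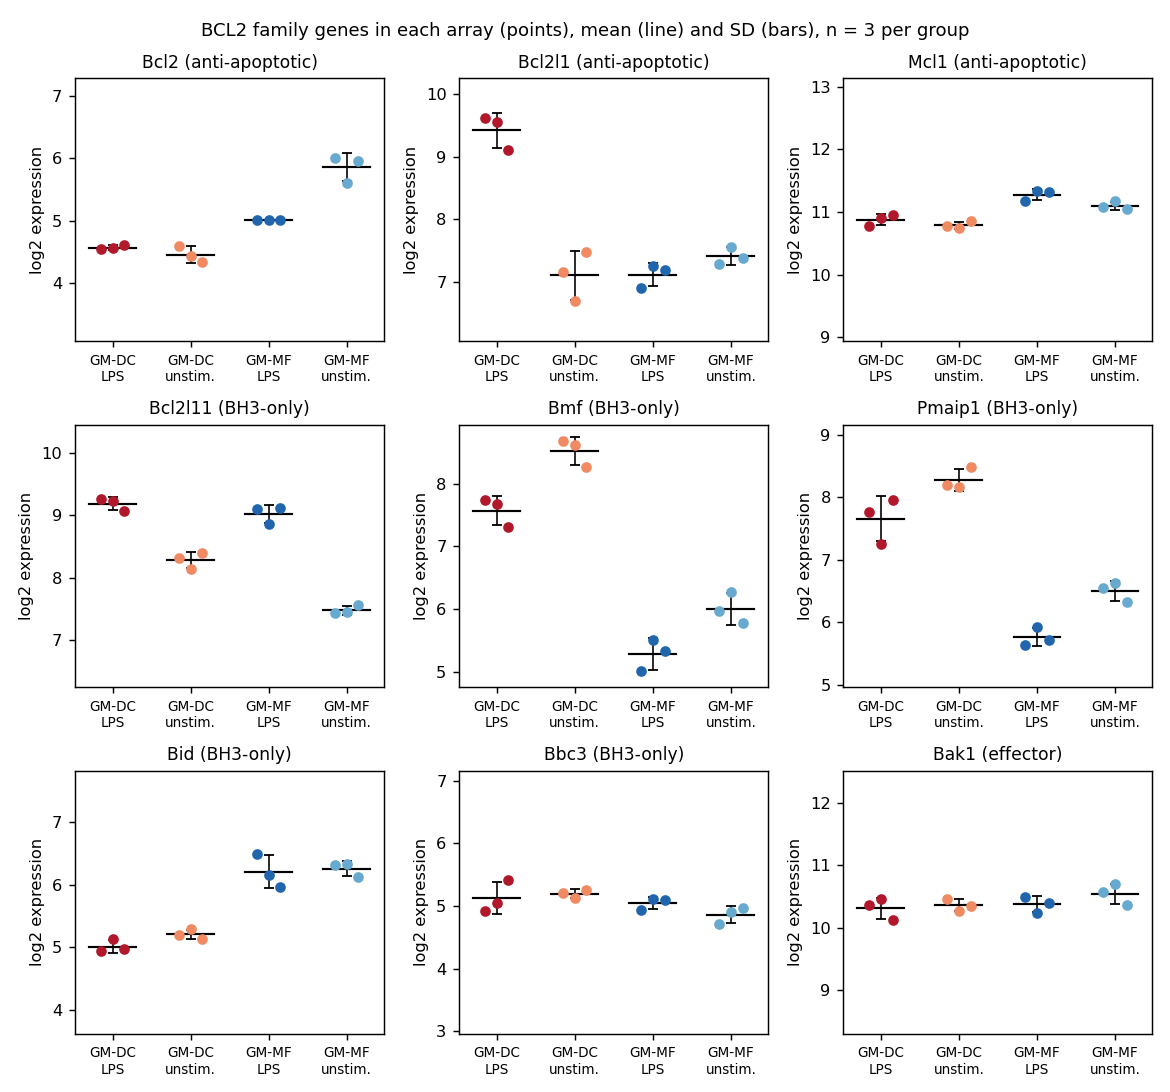
Log2 expression of the 9 genes in each array (points; replicates 1 to 3 from left to right), with the group mean (line) and SD (bars), n = 3 arrays per group; every panel spans the same number of log2 units. Bcl2l1 stands at 9.10 to 9.61 in GM-DC with LPS, above all other arrays, and Bmf and Pmaip1 are higher in every GM-DC array than in any GM-MF array.

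Values are on the log2 scale of the deposited table, on which a step of 1 is 2-fold, and levels of different genes are not set against each other. Differences come from limma fitted to all genes and 12 arrays, with the standard error after the sign ±, and adjusted p-values are over 19938 genes. A gene counts as called at an adjusted p under 0.05.

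Of the protective genes, Bcl2l1 responded most. Its 3 arrays of GM-DC with LPS read 9.61, 9.56 and 9.10, against 7.16, 6.69 and 7.47 in unstimulated GM-DC. In GM-MF it read 6.90, 7.26 and 7.19 with LPS and 7.28, 7.56 and 7.38 without. Every array of stimulated GM-DC lay above all the others, whereas stimulated GM-MF and unstimulated GM-DC overlapped. In GM-MF all arrays with LPS lay below those without. The LPS response was 2.32 ± 0.18 in GM-DC (4.99-fold, limma adjusted p = 8.02e-07), which placed it 78th among all genes by size. In GM-MF it was -0.29 ± 0.18 (adjusted p = 0.363), with a 95% interval of -0.68 to 0.10. The test of the difference between these responses gave 2.61 ± 0.26 (adjusted p = 1.52e-05). GM-DC exceeded GM-MF with LPS (2.31 ± 0.18, 4.95-fold, adjusted p = 7.1e-08) and did not pass without it (-0.30 ± 0.18, adjusted p = 0.253, 95% interval -0.69 to 0.09).

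Bcl2, the founding protective gene, showed another order. It read 4.55, 4.56 and 4.61 in GM-DC with LPS and 4.60, 4.44 and 4.34 in unstimulated GM-DC. In GM-MF it read 5.01, 5.02 and 5.01 with LPS and 6.01, 5.61 and 5.96 without. The groups of GM-MF did not overlap each other or GM-DC, and those of GM-DC overlapped each other at values close to the median of the whole table, 4.48. LPS lowered Bcl2 in GM-MF (-0.85 ± 0.11, 1.80-fold, limma adjusted p = 8.99e-05). In GM-DC the LPS response was 0.11 ± 0.11 (adjusted p = 0.709), with a 95% interval of -0.13 to 0.36, and the responses differed by 0.96 ± 0.16 (adjusted p = 0.00145). Unstimulated GM-DC had 2.64-fold less Bcl2 than unstimulated GM-MF (-1.40 ± 0.11, adjusted p = 9.29e-08), and with LPS the difference was -0.44 ± 0.11 (1.36-fold, adjusted p = 0.00613). No background call was made, so the low value in GM-DC was not read as absence and these folds are ratios of signals.

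Mcl1, a protector with a short-lived protein, was not called in either LPS response. It read 10.78, 10.90 and 10.95 in GM-DC with LPS and 10.78, 10.74 and 10.85 without, and 11.18, 11.33 and 11.32 in GM-MF with LPS and 11.08, 11.17 and 11.05 without. GM-DC lay below GM-MF in every array, by -0.40 ± 0.09 with LPS (1.32-fold, limma adjusted p = 0.00301) and by -0.31 ± 0.09 without (1.24-fold, adjusted p = 0.0163). The call without LPS was lost after quantile normalization (-0.19, adjusted p = 0.139) and without unstimulated GM-DC replicate 1 (adjusted p = 0.0504), unstimulated GM-DC replicate 2 (0.0623) or unstimulated GM-MF replicate 2 (0.0537). The LPS response did not pass in GM-DC (0.09, 95% interval -0.11 to 0.29) or in GM-MF (0.18, 95% interval -0.02 to 0.38). In GM-MF all arrays with LPS nevertheless lay above those without.

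Among the BH3-only genes, Bcl2l11 rose with LPS in both cell types. It read 9.26, 9.23 and 9.06 in GM-DC with LPS and 8.32, 8.14 and 8.39 without. In GM-MF it read 9.09, 8.86 and 9.11 with LPS and 7.43, 7.45 and 7.56 without. Stimulated arrays of the cell types overlapped each other and lay above all unstimulated ones, and unstimulated GM-DC lay above unstimulated GM-MF. The rise was 0.90 ± 0.11 in GM-DC (1.87-fold, limma adjusted p = 5.53e-05) and 1.54 ± 0.11 in GM-MF (2.91-fold, adjusted p = 1.74e-07). It was smaller in GM-DC by a test of the difference (-0.64 ± 0.15, adjusted p = 0.0164). GM-DC had 1.74-fold more Bcl2l11 before LPS (0.80 ± 0.11, adjusted p = 2.07e-05), and with LPS the difference was 0.16 ± 0.11 (adjusted p = 0.286, 95% interval -0.07 to 0.39).

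Bmf, whose protein is known to sit on the cytoskeleton through a dynein light chain, went the other way. It read 7.74, 7.67 and 7.31 in GM-DC with LPS and 8.68, 8.62 and 8.27 without. In GM-MF it read 5.01, 5.50 and 5.33 with LPS and 5.97, 6.27 and 5.77 without. The 4 groups did not overlap, with unstimulated GM-DC highest and stimulated GM-MF lowest. LPS lowered Bmf by -0.95 ± 0.17 in GM-DC (1.93-fold, limma adjusted p = 0.00161) and by -0.72 ± 0.17 in GM-MF (1.65-fold, adjusted p = 0.0068). The responses did not pass a test of their difference (-0.23, 95% interval -0.74 to 0.28). GM-DC exceeded GM-MF by 2.29 ± 0.17 with LPS (4.90-fold, adjusted p = 2.83e-08) and by 2.52 ± 0.17 without (5.74-fold, adjusted p = 9.59e-09), the largest difference without LPS among the 9 genes.

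Pmaip1 encodes NOXA, which binds MCL1, and its 4 groups stood in the same order as those of Bmf, again without overlap. It read 7.76, 7.26 and 7.95 in GM-DC with LPS and 8.20, 8.16 and 8.48 without. In GM-MF it read 5.64, 5.92 and 5.72 with LPS and 6.55, 6.63 and 6.32 without. The fall was -0.74 ± 0.16 in GM-MF (1.66-fold, limma adjusted p = 0.0042) and -0.62 ± 0.16 in GM-DC (1.54-fold, adjusted p = 0.0211). The GM-DC call was lost when the other cell type was left out of the fit (adjusted p = 0.0665), without stimulated GM-DC replicate 2 (-0.43, adjusted p = 0.101) and without unstimulated GM-DC replicate 3 (-0.52, adjusted p = 0.0883), and it was kept with replicate numbers as a block within cell type (adjusted p = 0.00512). The difference of the responses was 0.11 (95% interval -0.37 to 0.59). GM-DC exceeded GM-MF by 1.89 ± 0.16 with LPS (3.72-fold, adjusted p = 1.36e-07) and by 1.78 ± 0.16 without (3.44-fold, adjusted p = 2.74e-07).

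Bid, whose protein is cut and so activated by caspase-8, differed by cell type. It read 4.94, 5.13 and 4.97 in GM-DC with LPS and 5.20, 5.29 and 5.14 without, against 6.50, 6.16 and 5.97 in GM-MF with LPS and 6.32, 6.34 and 6.12 without. All GM-DC arrays lay below all GM-MF arrays. The difference was -1.20 ± 0.13 with LPS (2.29-fold, limma adjusted p = 1.81e-06) and -1.05 ± 0.13 without (2.07-fold, adjusted p = 7.46e-06). LPS responses did not pass in GM-DC (-0.19, 95% interval -0.47 to 0.08) or in GM-MF (-0.05, 95% interval -0.32 to 0.22).

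Bbc3 and Bak1 gave little to compare. Bbc3, the gene of PUMA, read 4.92, 5.05 and 5.41 in GM-DC with LPS and 5.21, 5.13 and 5.26 without, and 4.94, 5.12 and 5.09 in GM-MF with LPS and 4.71, 4.91 and 4.97 without. Each neighbour in the order of group means overlapped the next. Only unstimulated GM-DC against unstimulated GM-MF passed (0.34 ± 0.12, 1.27-fold, limma adjusted p = 0.0473), and that call was lost under 14 of 22 alternatives, among them leaving out any of 10 of the 12 arrays, with adjusted p up to 0.177. Bak1, the pore former, read 10.36, 10.45 and 10.12 in GM-DC with LPS and 10.46, 10.27 and 10.34 without. In GM-MF it read 10.49, 10.24 and 10.40 with LPS and 10.57, 10.69 and 10.37 without. All its groups overlapped their neighbours, and it passed in 0 of the 5 limma comparisons. The 95% interval for GM-DC against GM-MF was -0.32 to 0.19 with LPS and -0.44 to 0.07 without, and for the LPS response -0.30 to 0.21 in GM-DC and -0.42 to 0.09 in GM-MF.

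**Figure D2:**
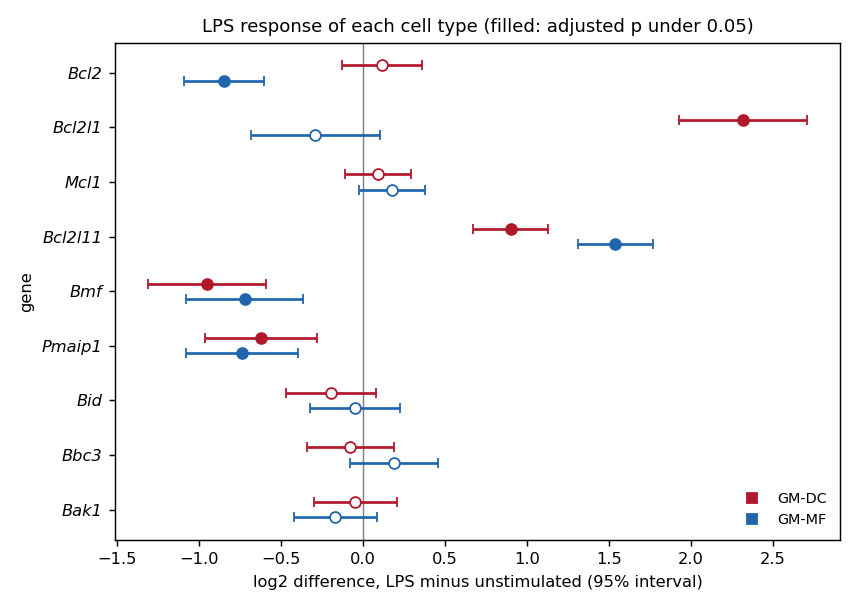
Log2 difference of LPS minus unstimulated arrays for each gene in GM-DC (red) and GM-MF (blue), with the 95% interval of the limma fit; filled points passed at an adjusted p under 0.05. For Bcl2l1 the GM-DC point is at 2.32 and the GM-MF point at -0.29, for Bcl2 they are at 0.11 and -0.85, and Bcl2l11 is above 0 and Bmf and Pmaip1 below 0 in both.

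Counted over the 9 genes, 4 were called in the LPS response of GM-DC, 2 higher (Bcl2l1 and Bcl2l11) and 2 lower (Bmf and Pmaip1). Of all genes tested 9.72% were called there, 5.23% higher and 4.49% lower. In the LPS response of GM-MF 4 were called as well, 1 higher (Bcl2l11) and 3 lower (Bcl2, Bmf and Pmaip1), against 17.4% of all genes, 6.54% higher and 10.8% lower. The median of the 9 differences was -0.05 in GM-DC and -0.17 in GM-MF, where the medians of all genes were -0.01 and -0.02. The LPS responses of the cell types differed for 3 genes, against 7.59% of all genes. A difference of at least 2-fold was called for 1 gene in each cell type, Bcl2l1 in GM-DC (2.08% of all genes) and Bcl2l11 in GM-MF (3.17%). The arrays of LPS and unstimulated groups did not overlap for 5 genes in GM-DC, where this held for 24.3% of all genes, and for 6 in GM-MF, where it held for 31.5%. The responses were higher in GM-DC for Bcl2l1 and Bcl2 and lower for Bcl2l11, where 4.53% of all genes were higher and 3.06% lower. For 1 of the 3, Bcl2l1, the difference was at least 2-fold, as called for 3.26% of all genes. The means of all 9 genes lay above the median of the table, as held for 11087 of the genes tested. The shares of all genes, here and below, therefore include many genes of lower signal. The 9 genes and the lists below were also chosen with earlier results of these data known, so the counts beside these shares only describe them.

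**Figure D3:**
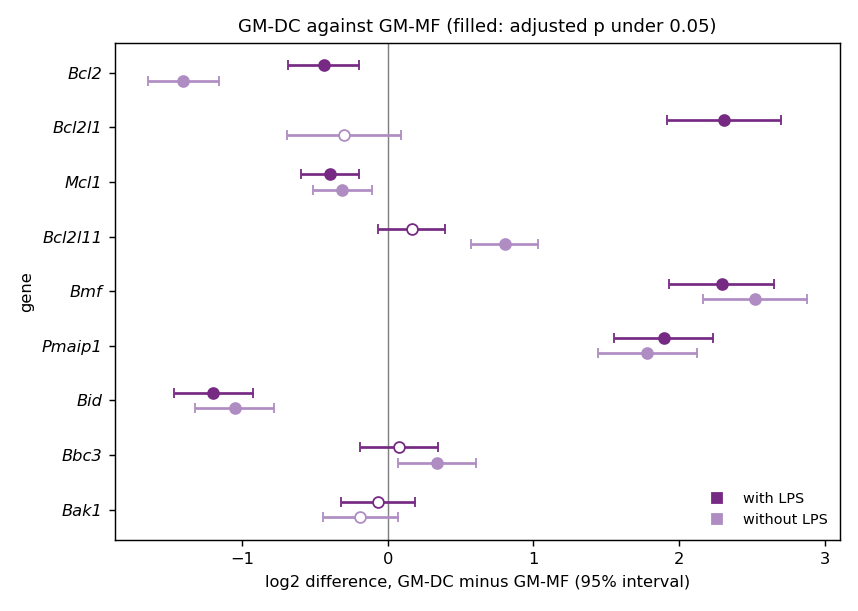
Log2 difference of GM-DC minus GM-MF for each gene with LPS (dark) and without LPS (light), with the 95% interval of the limma fit; filled points passed at an adjusted p under 0.05. The intervals of Bmf and Pmaip1 lie above 0 and that of Bid below 0 in both conditions, and Bcl2l1 is at 2.31 with LPS and at -0.30 without.

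Between the cell types, 6 of 9 genes were called with LPS, 3 higher in GM-DC (Bcl2l1, Pmaip1 and Bmf) and 3 lower (Bcl2, Mcl1 and Bid). Of all genes 36.3% were called in that comparison, 20.9% higher and 15.4% lower. Without LPS 7 of 9 were called, 4 higher in GM-DC (Bcl2l11, Pmaip1, Bbc3 and Bmf) and 3 lower (Bcl2, Mcl1 and Bid), against 34.2% of all genes, 18.0% higher and 16.2% lower. The count without LPS was 5 when both Mcl1 and Bbc3 lost their calls, as after quantile normalization. Differences of at least 2-fold were held by 4 of 9 genes with LPS and 4 of 9 without, where 12.9% and 12.7% of all genes had one. The arrays of the cell types did not overlap for 6 genes with LPS, as for 44.9% of all genes, and for 7 without, as for 44.4%. The median size of the difference, sign ignored, was 0.44 over the 9 genes with LPS and 0.80 without, against 0.21 and 0.20 over all genes.

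The lists of related and connected genes are set beside the shares of all genes called, which were 36.3% between cell types with LPS, 34.2% without, 9.72% for the LPS response of GM-DC and 17.4% for that of GM-MF. For the difference of these responses the share was 7.59%. Of 13 measured relatives of the family, 5 were higher and 2 lower in GM-DC than in GM-MF with LPS, and 3 were higher and 2 lower without. The largest difference was that of Bcl2l14, which encodes BCL-G (limma difference 1.82 ± 0.10 with LPS and 2.47 ± 0.10 without). Its mean level was 6.06 ± 0.16 in GM-DC with LPS, 6.72 ± 0.083 in GM-DC without, 4.24 ± 0.058 in GM-MF with LPS and 4.26 ± 0.016 in GM-MF without (SD, n = 3 each), so that both GM-MF means lay under the median of the table. Bcl2l12 was higher in GM-DC in both conditions (0.75 ± 0.11 with LPS and 0.44 ± 0.11 without). Bnip3, known for the removal of mitochondria, was lower in both (-1.33 ± 0.20 with LPS and -1.76 ± 0.20 without). Bcl2l15 was lower with LPS, with groups that overlapped (-0.42 ± 0.15), and its value without LPS was 0.02 ± 0.15. Its group means, from 2.90 in GM-DC with LPS to 3.31 in GM-MF with LPS, all lay under the median of the table, so this call rests on low signal. Bnip3l was lower without LPS (-0.30 ± 0.10), and its value with LPS was -0.13 ± 0.10.

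LPS changed 1 of the 13 relatives in GM-DC, lowering Bcl2l14 (-0.67 ± 0.10), and 4 in GM-MF, where Bcl2l14 was at -0.01 ± 0.10. In GM-MF Bcl2a1c rose (0.86 ± 0.11), and Bcl2l12 (-0.52 ± 0.11), Bcl2l2 (-0.38 ± 0.09) and Bad, named after its values were seen (-0.36 ± 0.11), fell. The GM-DC responses of these genes were 0.08 ± 0.11 for Bcl2a1c, -0.21 ± 0.11 for Bcl2l12, 0.001 ± 0.095 for Bcl2l2 and -0.23 ± 0.11 for Bad. Bcl2a1c belongs to the A1 group of protectors, whose near-identical copies in the mouse may share signal on this probe set, so its value is uncertain. It was also higher in GM-DC without LPS (0.76 ± 0.11), and its difference with LPS was -0.02 ± 0.11.

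Downstream of the mitochondria, 15 genes of the apoptosome, the caspases and their inhibitors were measured. Of these 7 were higher and 1 lower in GM-DC with LPS, and 2 were higher and 2 lower without. Birc2, which encodes the ubiquitin ligase cIAP1, was 3.39-fold higher in GM-DC with LPS (1.76 ± 0.14) and 5.92-fold higher without (2.57 ± 0.14). Htra2, a mitochondrial protease, was higher too (1.00 ± 0.12 with LPS and 0.58 ± 0.12 without). Cycs, the gene of cytochrome c, was lower in GM-DC (-0.96 ± 0.11 with LPS and -0.87 ± 0.11 without). Birc5, the gene of survivin, was lower without LPS (-0.58 ± 0.11) and at -0.04 ± 0.11 with it.

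LPS raised 1 of these 15 genes and lowered 2 in GM-DC, and raised 2 and lowered 4 in GM-MF. Casp9, the initiator caspase of the apoptosome, fell in GM-DC (-0.61 ± 0.13) and in GM-MF (-0.84 ± 0.13). Apaf1, the scaffold of the apoptosome, rose in GM-DC (0.41 ± 0.11) and was at 0.26 ± 0.11 in GM-MF. Casp6, an executioner caspase, fell in GM-DC (-0.46 ± 0.10) and was at -0.15 ± 0.10 in GM-MF. Birc2 rose in GM-MF (0.88 ± 0.14) and was at 0.08 ± 0.14 in GM-DC. Cycs rose in GM-MF (0.42 ± 0.11) and was at 0.32 ± 0.11 in GM-DC. Birc5 fell in GM-MF (-0.76 ± 0.11) and was at -0.22 ± 0.11 in GM-DC. Of these 6 genes, the responses of the cell types passed a test of their difference for Birc2.

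Of 10 measured genes of death receptors and necroptosis, 3 were higher and 5 lower in GM-DC with LPS, and 4 were higher and 4 lower without. Mlkl, which encodes the executor of necroptosis, was 14.2-fold lower in GM-DC with LPS (-3.82 ± 0.23) and 20.5-fold lower without (-4.36 ± 0.23). Its mean was 5.51 ± 0.63 in GM-DC with LPS, 4.11 ± 0.29 in GM-DC without, 9.34 ± 0.094 in GM-MF with LPS and 8.47 ± 0.13 in GM-MF without (SD, n = 3 each). The unstimulated GM-DC value was under the median of the table, so the fold is a ratio of signals. Tnfrsf1a, the receptor 1 of TNF, was also lower in GM-DC (-1.99 ± 0.12 with LPS and -2.61 ± 0.12 without), and so was Casp8, the initiator caspase of death receptors (-1.12 ± 0.11 with LPS and -0.94 ± 0.11 without). Tnfrsf10b, a receptor of the death ligand TRAIL, was higher (1.10 ± 0.13 with LPS and 0.72 ± 0.13 without), and its mean in GM-MF with LPS, 4.39, lay under the median of the table. Higher in both conditions were also Fadd, an adaptor of death receptors (0.73 ± 0.11 with LPS and 0.44 ± 0.11 without), and Cyld, a deubiquitinase (0.44 ± 0.10 with LPS and 0.78 ± 0.10 without). Fas, a death receptor, was higher in GM-DC without LPS (0.58 ± 0.11) and at -0.06 ± 0.11 with it.

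LPS raised 3 of these 10 genes in GM-DC and 4 in GM-MF. Cflar, whose protein blocks caspase-8, rose in GM-DC (0.75 ± 0.10) and GM-MF (1.03 ± 0.10), as did Mlkl (1.40 ± 0.23 in GM-DC and 0.87 ± 0.23 in GM-MF). Tnfrsf1a rose in GM-DC (0.44 ± 0.12) and was at -0.18 ± 0.12 in GM-MF. Fas rose in GM-MF (0.40 ± 0.11) and was at -0.24 ± 0.11 in GM-DC. Casp8 rose in GM-MF (0.37 ± 0.11) and was at 0.19 ± 0.11 in GM-DC, a pair of responses whose difference did not pass.

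Regulators of the family were split. Of 12 measured, 6 were higher and 2 lower in GM-DC with LPS, and 3 were higher and 4 lower without. Dynll2, the light chain known to hold BMF, was higher in GM-DC (2.05 ± 0.10 with LPS and 2.12 ± 0.10 without), and Dynll1, the light chain known to hold BIM, was lower (-0.29 ± 0.09 with LPS and -0.31 ± 0.09 without). The forkhead gene Foxo1 was higher in GM-DC (1.13 ± 0.14 with LPS and 1.96 ± 0.14 without), as was Rel, an NF-kB subunit (0.47 ± 0.11 with LPS and 2.17 ± 0.11 without). Mdm2, a ubiquitin ligase, was lower (-1.63 ± 0.11 with LPS and -0.57 ± 0.11 without). Myc was lower without LPS (-2.83 ± 0.16) and at -0.07 ± 0.16 with it. The cell cycle factor E2f1 was lower without LPS (-0.58 ± 0.13) and at -0.23 ± 0.13 with it. The kinase gene Mapk8 was higher with LPS (1.02 ± 0.14) and at -0.03 ± 0.14 without.

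LPS raised 2 of these 12 regulators and lowered 1 in GM-DC, and raised 3 and lowered 4 in GM-MF. Foxo3, a forkhead factor known to drive Bcl2l11, fell in GM-DC (-0.62 ± 0.18) and GM-MF (-1.29 ± 0.18). Bcl2l11 rose in both, and the part of Foxo3 in its level was not tested. Myc rose in GM-DC (0.87 ± 0.16) and fell in GM-MF (-1.89 ± 0.16). Mapk8 rose in GM-DC (0.90 ± 0.14) and was at -0.15 ± 0.14 in GM-MF. Rel rose in GM-MF (1.49 ± 0.11) and was at -0.20 ± 0.11 in GM-DC. Mdm2 rose in GM-MF (0.83 ± 0.11) and was at -0.22 ± 0.11 in GM-DC. Foxo1 rose in GM-MF (0.52 ± 0.14) and was at -0.31 ± 0.14 in GM-DC. E2f1 fell in GM-MF (-0.49 ± 0.13) and was at -0.13 ± 0.13 in GM-DC.

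Of 7 genes tied to the turnover of MCL1 protein, 2 were higher and 3 lower in GM-DC with LPS, and 2 were higher and 4 lower without. Huwe1, a ubiquitin ligase of MCL1, was higher in GM-DC (1.56 ± 0.12 with LPS and 1.45 ± 0.12 without). Fbxw7, which encodes a substrate receptor of another ligase, was higher in GM-DC with LPS (0.48 ± 0.15) and lower without (-0.56 ± 0.15). Btrc was higher without LPS (0.52 ± 0.13) and at 0.20 ± 0.13 with it. Marchf5 was lower in GM-DC (-0.55 ± 0.11 with LPS and -0.67 ± 0.11 without), as was the kinase gene Gsk3b (-0.76 ± 0.12 with LPS and -0.49 ± 0.12 without). Trib1, a pseudokinase gene known mainly for another target, was lower without LPS (-0.94 ± 0.13) and at 0.04 ± 0.13 with it.

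LPS raised 2 of these 7 genes and lowered 1 in GM-DC, and raised 1 and lowered 1 in GM-MF. Marchf5 rose in GM-DC (0.83 ± 0.11) and GM-MF (0.71 ± 0.11). Fbxw7 rose in GM-DC (1.03 ± 0.15) and was at -0.01 ± 0.15 in GM-MF. Btrc fell in GM-DC (-0.49 ± 0.13) and was at -0.17 ± 0.13 in GM-MF. Trib1 fell in GM-MF (-1.30 ± 0.13) and was at -0.32 ± 0.13 in GM-DC.

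**Figure D4:**
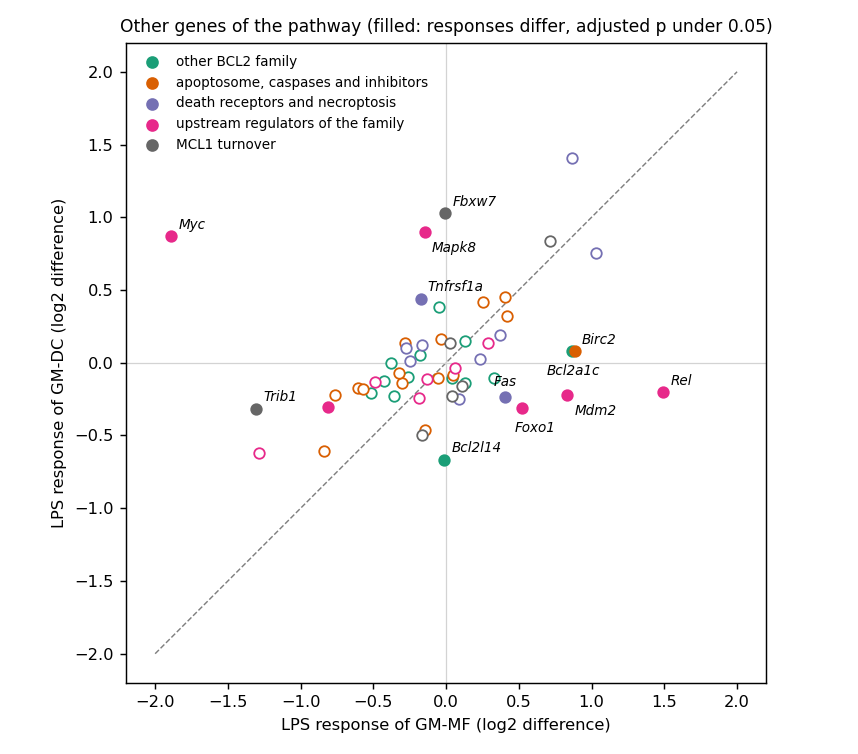
LPS response of GM-DC (vertical) against that of GM-MF (horizontal), both log2 differences, for the 57 genes of the 5 pathway lists, coloured by list. Filled points are the 13 genes whose responses differed at an adjusted p under 0.05, as for 7.59% of all genes. Of these, 12 are labelled, and the dashed line marks equal responses. The GM-DC and GM-MF responses were 0.87 and -1.89 for Myc, and -0.20 and 1.49 for Rel.

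The genes most alike to each of the 9 over the 12 arrays were found by Pearson correlation among 11201 other genes, as a description with no test, since the arrays form 4 groups and share their normalization. Bcl2l11 was most like Mir155, the gene of microRNA 155 (r = 0.987), and Il12b, a subunit of interleukin-12 (0.976). Bcl2l1 was most like Dll4, a Notch ligand (0.98), and Ciapin1 (0.963). Bmf was most like Vhl (0.992) and Tpd52l2 (0.99), and Pmaip1 like Zfp770 (0.993) and Prkar2a (0.991). For Bcl2 they were Rab7b (0.985) and Gpr155 (0.983), for Bid Atp8a1 (0.984) and Htra3 (0.983), and for Mcl1 Hilpda (0.976) and Snrnp35 (0.974). Bak1 and Bbc3, which varied least over the arrays together with Mcl1, had weaker neighbours, Pdcd6ip (0.907) and Dennd4b (0.875) for Bak1 and Tgif2 (0.927) and Hid1 (0.921) for Bbc3.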

How the data were processed

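Expression came as a single table of log2 values that the authors deposited. RMA and R 3.0.2 are named in the submitters' processing notes. Base 2 was inferred because all values lie between 1.18 and 13.7, and the RMA settings and the genome build are not given in the sources used here. Array medians lay between 4.41 and 4.54, and no further scaling was applied. The tests used no filter on low values. Of 35556 probe sets 21789 had 1 symbol, 1621 several and 12146 none, and the probe set with the highest mean over 12 arrays was kept for each of 19938 genes (999 had more than 1). For arrays, their number, 3 per group, limits the precision. No 2 arrays held identical values.

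Differences were tested with limma 3.58.1 in R 4.3.3 (lmFit with 4 group means on 12 arrays, contrasts, eBayes without trend, two-sided), with Benjamini-Hochberg adjustment over all genes and a call at 0.05. The fit was also run on simulated data with independent noise, and only the comparison of the cell types without LPS was checked. The tests of LPS responses were not checked this way. The genes and the lists were chosen with earlier results of these data known. Named were all 9 genes, per list and comparison up to 4 called genes with the largest differences (at most 2 per direction), and the 2 most alike genes. Candidates for likeness were the genes whose highest group mean reached the median of the table, without the 9 genes and without clone and gene model names.

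Same-numbered arrays with and without LPS deviated together (correlations of deviations from group means 0.119 to 0.363 in GM-DC and 0.104 to 0.257 in GM-MF). For different numbers the range was -0.25 to 0.164 in GM-DC, which overlaps that of same numbers, and -0.216 to 0.0254 in GM-MF. From the data alone, the numbers were taken to pair LPS and unstimulated arrays, in alternative fits only. The main fit used no replicate block. Between cell types same numbers gave -0.168 to 0.0117 without LPS and -0.0047 to 0.156 with LPS. Different numbers gave -0.13 to 0.146 without LPS and -0.135 to 0.0512 with LPS, so a pairing of the cell types was less clear. The alternatives tried were 3 scalings, 2 filters, the mean of probe sets, 2 variance models, a fit restricted to the compared groups, replicate blocks and leaving out each array.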

Additional observations from a re-analysis of the deposited data

Results flagged for a closer look

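The LPS responses of GM-DC and GM-MF differed, by the interaction term of limma, for 3 of the 9 genes. For Bcl2l1 the response was 2.32 in GM-DC and -0.29 in GM-MF, a difference of 2.61 ± 0.26 (adjusted p = 1.52e-05). For Bcl2 it was 0.11 in GM-DC and -0.85 in GM-MF, a difference of 0.96 ± 0.16 (adjusted p = 0.00145). For Bcl2l11 it was 0.90 in GM-DC and 1.54 in GM-MF, a difference of -0.64 ± 0.15 (adjusted p = 0.0164).

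Of the 57 measured genes of the 5 pathway lists, the same term passed for 13, against 7.59% of all genes. Of these 13, 12 are among the genes named above. Differences are the signed LPS response of GM-DC minus that of GM-MF, so a positive one can also come from a fall in GM-MF. Positive differences, by limma, were those of Myc (2.76 ± 0.23, adjusted p = 3.67e-06), which rose in GM-DC and fell in GM-MF, and of Trib1 (0.99 ± 0.18, adjusted p = 0.00256), which fell in GM-MF. Mapk8 (1.05 ± 0.20, adjusted p = 0.00373), Fbxw7 (1.04 ± 0.21, 0.00532) and Tnfrsf1a (0.62 ± 0.17, 0.0341) rose in GM-DC, by limma. Negative differences were those of Rel (-1.70 ± 0.16, adjusted p = 1.11e-05), Mdm2 (-1.05 ± 0.16, 0.000502), Foxo1 (-0.83 ± 0.20, 0.0153), Birc2 (-0.80 ± 0.19, 0.0166), Bcl2a1c (-0.78 ± 0.16, 0.00622) and Fas (-0.64 ± 0.16, 0.0234), which all rose in GM-MF by limma. That of Bcl2l14 was negative as well (-0.65 ± 0.14, adjusted p = 0.00899 by limma), and it fell in GM-DC. Ddit3, named after its values were seen, had a positive difference (0.51 ± 0.13, adjusted p = 0.0315 by limma) and fell in GM-MF (-0.81 ± 0.10).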

How the results depend on the processing

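Of 1008 recomputed differences of the 9 genes, 975 kept their direction and their side of the threshold. A call was lost in 21, and 12 changed sign, all of these 12 in differences that were not called. Only the scalings and leaving out an array of a compared group could move a difference itself. The other alternatives left it as it was and could alter only its adjusted p-value, so many of the 1008 could not change sign. The calls lost were those of Bbc3 and Mcl1 between unstimulated cell types (14 and 4 of 22 alternatives) and of Pmaip1 in GM-DC (3 of 23). The 9 genes' counts of calls lay between 5 and 7 without LPS and between 3 and 4 for the LPS response of GM-DC, and were 6, 4 and 3 under every alternative run for the cell types with LPS, the LPS response of GM-MF and the difference of the responses. With the replicate block the counts of calls were 7 without LPS, 6 with LPS, 4 for each LPS response and 3 for their difference, and a replicate block within cell type, chosen after seeing the data, gave 4, 4 and 3 for the last 3. Neither block changed a call of the 9 genes. The signs changed after cyclic loess for Bbc3 between cell types with LPS (-0.017) and Bid in GM-MF (0.036), and after quantile normalization for Bid in GM-MF (0.057), Bak1 between cell types with LPS (0.047) and Pmaip1 in the difference of the responses (-0.033). Leaving out 1 array gave -0.13 to 0.028 for Bak1 and -0.065 to 0.18 for Bbc3 between cell types with LPS, -0.11 to 0.048 for Bak1 and -0.22 to 0.027 for Bbc3 in the LPS response of GM-DC, -0.19 to 0.071 for Bid in that of GM-MF, and -0.033 to 0.31 for Pmaip1 in the difference of the responses. The cause was not tested. Without a background call, values near the table median, as for Bcl2 and Bbc3, limit what a fold means.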
